A study of Mus musculus with 6 samples.

Results

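The 43 genes described here encode the machinery of mitosis: Cdk1 and the proteins that switch it on and off, the Aurora and Polo kinases, the spindle checkpoint, the kinetochore, spindle motors, the cytokinesis apparatus and the regulators of anaphase. They were taken by symbol from the count tables, in which all 43 were found once each among 46072 genes, and all 43 were kept by the filter on low counts that left 17788 genes to test. The libraries came from mouse embryos at the 4-cell stage. In 3 of them the embryos had been microinjected as zygotes with siRNA against Son, whose product is an RNA-binding protein of nuclear speckles that supports splicing, and 3 were labelled control. The labels give no strain, no embryo number per library, no description of what controls received and no statement that replicates came from separate litters, so that p-values speak only of differences among these 6 libraries, which may be technical. The RNA is bulk RNA of whole embryos, in which fewer cells of a kind and less RNA per cell cannot be told apart.

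Entry into mitosis depends on cyclin B bound to Cdk1. Wee1 holds this kinase inactive by phosphorylation and the Cdc25 phosphatases remove that block. Chromosomes are then attached to microtubules at kinetochores, Aurora B and its passenger partners correct faulty attachments, and the checkpoint kinases and Mad proteins hold back the anaphase-promoting complex (APC/C) until attachment is complete. After separase has cut cohesin, the central spindle and a contractile ring divide the cytoplasm. In the mouse the first cleavages start on mRNA stored in the oocyte, part of which encodes these proteins, and the embryo's own transcripts replace it from the 2-cell stage onward. In human cells depletion of SON disturbs spindle and cytokinesis genes, AURKB among them, through weaker splicing.

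Many genes of mitosis carry a short element near the transcription start called the cell cycle genes homology region (CHR), often beside CCAAT boxes. CHR letters were searched for here as TTTGAA or TTCGAA only. RefSeq promoter windows of 300 bases (250 before and 50 after the annotated start, build GRCm38.p6) were at hand for 35 members. On either strand, 24 of these 35 members (68.6%) held CHR letters in a window, against 21.7% of all 27025 genes with one. CCAAT letters stood in 26 members (74.3%), against 41.1% of all genes, and both stood in 21 (60%), against 8.61%. In the 150 bases before the start the CHR count was 8 (22.9%, against 11.2% of genes), the CCAAT count 26 (74.3%, against 27.7%) and the count of both 7 (20%, against 2.85%). Some members have 2 windows, and a member was counted when either held a match. Ccna2, Cdc25c, Wee1, Tpx2, Aurkb, Incenp, Spc24 and Kif20a had no entry. A letter match is a description of the sequence and not a binding site.

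The stretch from 110 bases before to 20 bases after the start is shown for 6 members that return below as partners or opposites: cyclin B1 with its kinase Cdk1 and its relative cyclin B2, the midzone protein Prc1, and the pair that forms centralspindlin. Capitals mark CHR and CCAAT letters, on either strand, and each run reads 5′ to 3′ on the strand of the gene.
Ccnb1, chr13:100786467-100786596, minus strand: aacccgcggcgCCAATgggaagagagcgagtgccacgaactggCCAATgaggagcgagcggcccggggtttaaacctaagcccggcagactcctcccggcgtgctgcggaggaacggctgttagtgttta
Cdk1, chr10:69352893-69353022, minus strand: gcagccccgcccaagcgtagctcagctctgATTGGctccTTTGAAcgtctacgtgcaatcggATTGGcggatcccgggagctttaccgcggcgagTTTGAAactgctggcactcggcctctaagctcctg
Ccnb2, chr9:70421535-70421664, minus strand: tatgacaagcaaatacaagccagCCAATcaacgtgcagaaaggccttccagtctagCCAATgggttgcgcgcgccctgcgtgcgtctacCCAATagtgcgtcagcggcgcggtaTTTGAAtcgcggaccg
Prc1, chr7:80294341-80294470, plus strand: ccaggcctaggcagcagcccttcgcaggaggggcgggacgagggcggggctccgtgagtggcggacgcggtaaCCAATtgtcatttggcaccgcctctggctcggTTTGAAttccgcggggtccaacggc
Racgap1, chr15:99651637-99651766, minus strand: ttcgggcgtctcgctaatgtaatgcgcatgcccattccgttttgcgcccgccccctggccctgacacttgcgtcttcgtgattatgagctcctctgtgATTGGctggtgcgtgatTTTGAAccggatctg
Kif23, chr9:61946780-61946909, minus strand: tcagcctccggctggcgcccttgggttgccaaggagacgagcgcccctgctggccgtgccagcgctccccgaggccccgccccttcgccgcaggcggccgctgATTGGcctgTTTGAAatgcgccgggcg
Racgap1 and Kif23 have nearly the same layout, with CCAAT letters at -12 and -7 and CHR letters at 6 and 3, counted from the start. Ccnb1 has a pair of CCAAT boxes and neither TTTGAA nor TTCGAA in its window. Other spellings of the CHR were not searched for.

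Library totals ran from 104634855 to 118865650 estimated count units, and mitochondrial genes took 13.2% to 17.5% of the siRNA totals and 9.79% to 16% of the control totals. Son, the siRNA target, fell to 41, 28 and 25.1 CPM (counts scaled to a common library size with TMM factors) in siRNA libraries 1 to 3, against 249, 322 and 332 CPM in controls 1 to 3 (log2 fold change -3.26, SE 0.272, edgeR adjusted p = 0.00991). Without siRNA library 1, 2 or 3 that adjusted p was 0.0648, 0.0709 or 0.136, and with the replicate number as a block it was 0.0617. All 5 early embryo transcripts looked at, a list added after the data were seen, had a fold change below 0, against 48.7% of all genes. Their median was -0.92 (-0.65 with library totals). Of them 4 were lower at an edgeR unadjusted p under 0.05, against 8.86% of all genes, and edgeR called 0 of them. The list summed to 2950 to 3224 CPM in siRNA libraries and 4993 to 8102 CPM in controls, mostly Obox6 and Sall4, while Pou5f1 stood at 0.755 to 1.37 CPM in siRNA libraries and 1.88 to 5.75 CPM in controls. Of 10 cumulus cell markers, Inhba, Cyp11a1 and Fshr were at 0 in every library, where a floor of 3 read pairs stands at 0.0906 to 0.125 CPM, and the whole list summed to 20.5 to 28.1 CPM in siRNA libraries and 7.65 to 18.4 CPM in controls, mostly Amhr2 (23.8 and 11.8 CPM on average). The 6 sperm markers summed to at most 0.905 CPM in siRNA libraries and 1.14 CPM in controls, with Tnp2 and Odf1 at 0 in all. The 6 blood markers summed to 6.93 to 8.35 CPM in siRNA libraries and 6.82 to 11.4 CPM in controls, with Hbb-bs, Hbb-bt and Ptprc at 0 in all. Of 12 maternal oocyte transcripts, 10 had a fold change above 0, against 51.3% of all genes. At an edgeR unadjusted p under 0.05, 7 were higher (58.3%, against 5.88% of all genes) and 0 lower. None was called by edgeR, and DESeq2 called 2 higher, against 2.28% of all genes. The list summed to 442 to 664 CPM in siRNA libraries, against 187 to 355 CPM in controls. The part of these transcripts, of the embryo transcripts and of library differences in the results was not tested.

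Relative to all genes the mitosis genes leaned lower after Son siRNA under both TMM factors and library totals. With TMM factors the lean was led by cyclin B1, Aurora A and B, survivin, Cenpe and 4 of 6 cytokinesis genes. With these factors 25 members had a log2 fold change between -0.5 and 0.5. No member passed edgeR's test at an adjusted p under 0.05 in either direction (0 of 43 lower and 0 higher, where 0.899% of all genes tested were called lower and 0.0899% higher, 0.989% in all). At an unadjusted p under 0.05, 11 members (25.6%) were lower and 1 (2.33%) higher, where the shares of all genes were 8.86% and 5.88%. In 12 members (27.9%) all 3 siRNA libraries lay below all 3 controls and in 2 (4.65%) above them, where 11.6% and 12.1% of all genes did so. DESeq2's Wald test called 9 members lower (20.9%) and 0 higher, against 4.63% and 2.28% of all genes. Of the 43 members, 38 stood at 10 CPM or more, against 6079 of the 17788 genes tested. These shares depend on level, and a comparison with genes of like level was not made. A fold change below 0 was seen in 32 members (74.4%), against 48.7% of all genes, and above 0 in 11, against 51.3%. The median log2 fold change was -0.25 for members and 0.02 for all genes (0.06 and 0.31 with library totals). The members were chosen with earlier results of these data known, so these shares and medians cannot serve as a test.

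Scaling moves the zero point of these values. Library totals alone, without TMM factors, shifted the median of all genes by 0.29, and the members stood 0.27 below the median of all genes with TMM and 0.25 below it with totals (log2). With totals, 5 members had an unadjusted p under 0.05 and were lower, against 4.45% of all genes, and 3 were higher, against 10.9%. The 5 were Ccnb1, Aurkb, Birc5, Cenpe and Anln, and the 3 were Ccnb2, Bub1b and Spc25. Without overlap between groups, 7 members were lower with totals (16.3%, against 6.22% of all genes: Ccnb1, Wee1, Aurkb, Birc5, Cenpe, Prc1 and Ect2) and 7 were higher (16.3%, against 18.8%: Ccnb2, Bub1b, Ndc80, Spc24, Spc25, Zwint and Pttg1). Cdk1, Aurka, Kif18a, Racgap1 and Anln, which did not overlap with TMM factors, did so with totals.

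**Figure D1:**
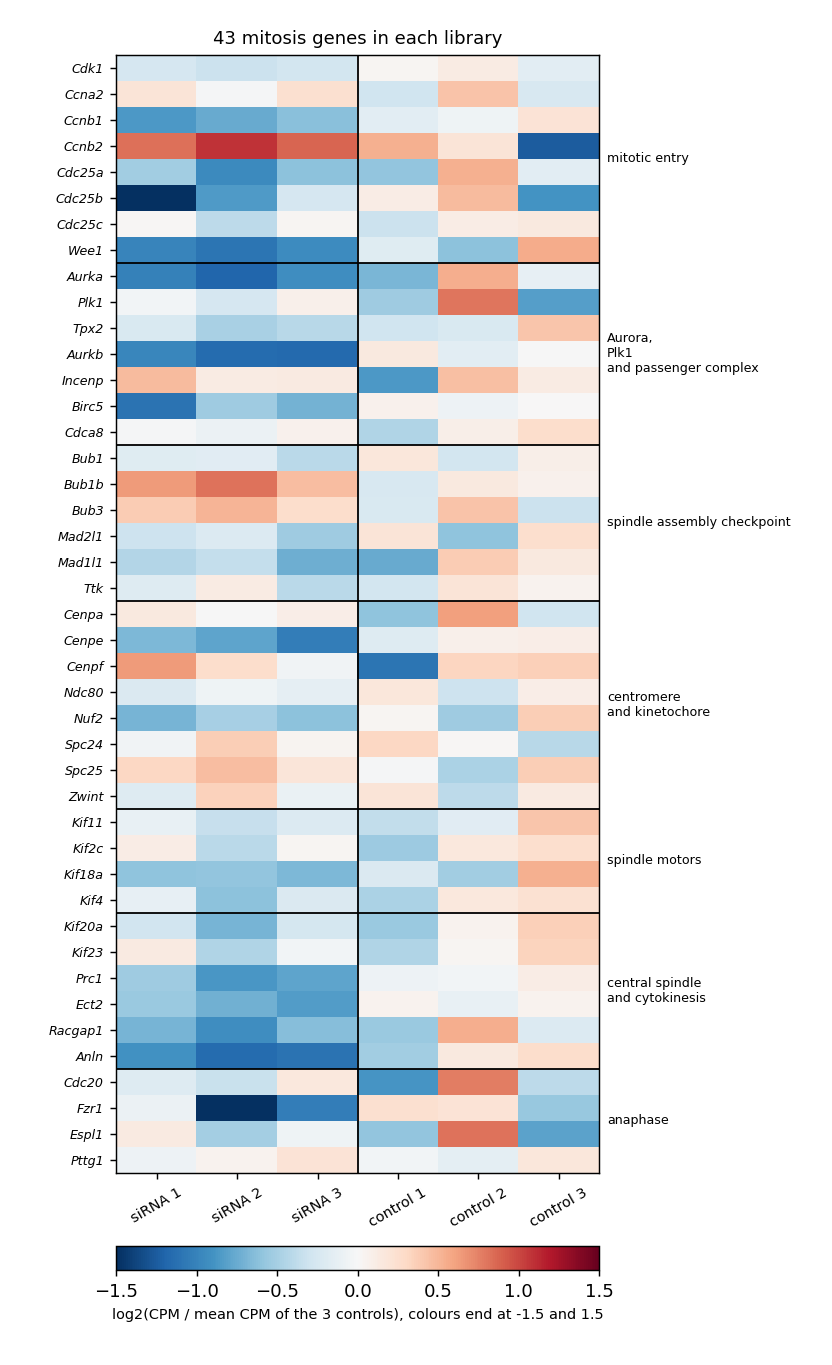
Each row is a gene and each column a library (siRNA 1 to 3, then control 1 to 3), with colour giving log2 of its CPM over the mean of the 3 controls. Wee1, Aurkb, Cenpe, Prc1, Ect2 and Anln are blue in all 3 siRNA libraries, Ccnb2 and Bub1b are red, and the control columns differ among themselves.

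Summed over the 43 genes, the level was 8264, 7914 and 8288 CPM in siRNA libraries 1 to 3 and 9787, 11840 and 12837 CPM in controls 1 to 3. With TMM factors the siRNA sums lay below every control sum, at 71% of the control mean. With library totals that separation was lost: the sums were 9566, 8096 and 9551 in siRNA libraries and 8396, 12453 and 10401 CPM in controls, 87.1% on average, with control 1 below siRNA libraries 1 and 3. Cyclin B1 made up a large part of all sums. For 38 members at 10 CPM or more the SD of log2 CPM had a median of 0.148 in siRNA libraries and 0.402 in controls, where all 6079 genes at that level had 0.214 and 0.419. Members thus varied more among controls than among siRNA libraries. Control 3 held the highest control value for 20 members (46.5%, against 29.5% of all genes tested), control 2 for 15 (34.9%, against 36.8%) and control 1 for 8 (18.6%, against 33.6%). Summed by role, cytokinesis genes had 1015 ± 120 CPM in siRNA libraries and 1626 ± 281 CPM in controls, and genes of mitotic entry 1897 ± 131 and 2917 ± 352 CPM (SD, n = 3 each). These siRNA sums were 62.4% and 65% of the control sums, and those of the kinetochore genes, the Aurora, Polo and passenger genes and the motors were 69.8%, 71.4% and 76.8%. With library totals the sums of all 7 roles overlapped between groups, and the share was 76.6% for cytokinesis, 80% for entry, 85.2% for kinetochore, 87.4% for Aurora, Polo and passenger genes and 95.7% for motors. Checkpoint genes had 309 ± 31.9 CPM in siRNA libraries and 352 ± 53.2 CPM in controls (87.8%), and anaphase genes 734 ± 91.4 and 746 ± 200 CPM (98.4%), where the spreads overlapped, and with totals the siRNA sums of both roles were 109% and 118% of the control sums. The abundant members weigh most in such sums, as Cenpe does among the kinetochore genes.

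Per kilobase of exon, cyclin B1 was the most abundant member, at 341 ± 27.4 CPM per kilobase in siRNA libraries and 572 ± 78 CPM per kilobase in controls (SD, n = 3 each). Birc5, which encodes survivin, followed at 161 ± 31.6 and 274 ± 14.2, Pttg1, the gene of the separase inhibitor securin, at 198 ± 19.6 and 189 ± 21.5, and the APC/C activator Cdc20 at 171 ± 30.7 and 184 ± 113, in siRNA libraries and controls and on the same scale. Birc5 stood below Pttg1 in siRNA libraries and above it in controls, and the spreads of Pttg1 and Cdc20 overlap, so the order of these 3 is not resolved. At the other end stood Cdc25b at 0.289 ± 0.15 and 0.524 ± 0.225 and Fzr1, the second APC/C activator, at 0.495 ± 0.293 and 0.871 ± 0.248 CPM per kilobase. The embryos thus held abundant cyclin B1, securin, survivin and Cdc20 mRNA and little of Cdc25b, Fzr1, Mad1l1, Espl1 and Ccnb2.

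**Figure D2:**
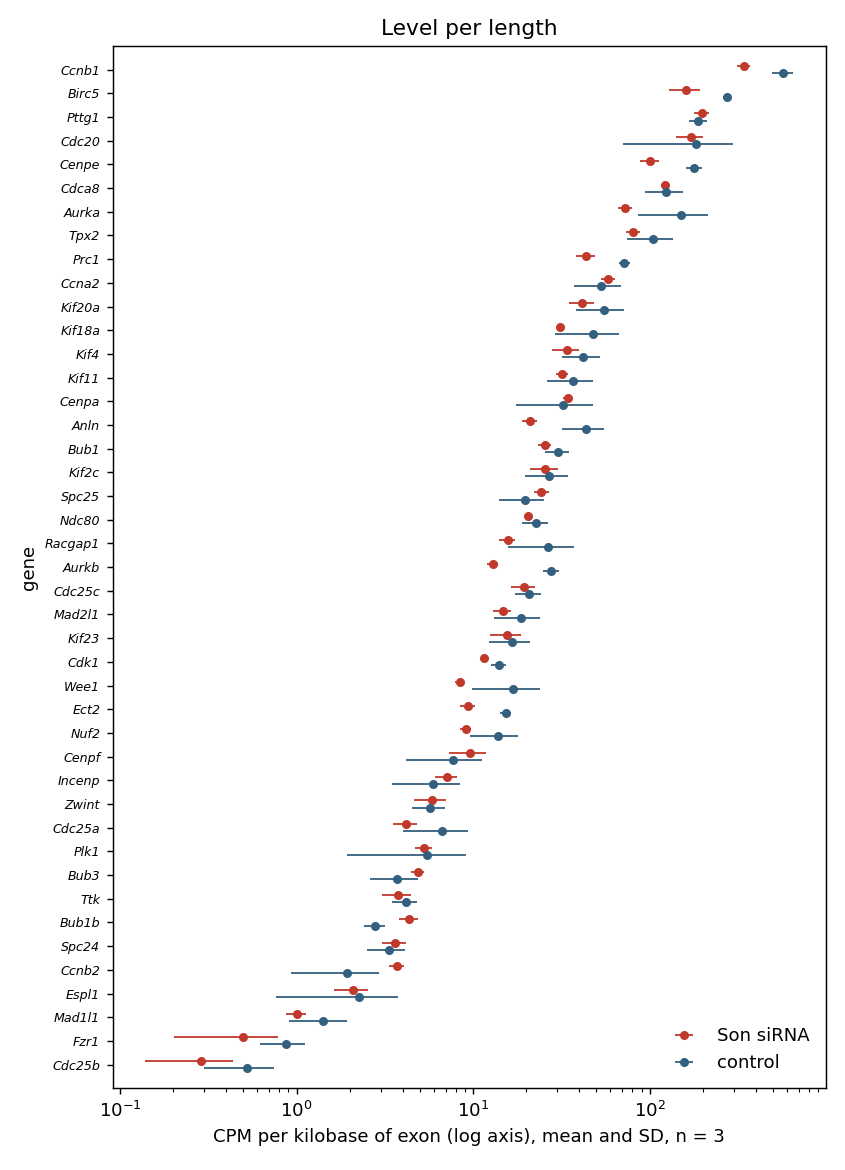
Points give the mean CPM per kilobase of exon of each gene on a log axis, red for Son siRNA and blue for control, with bars of 1 SD (n = 3 each). Levels run from Ccnb1 at the top (341 and 572) to Cdc25b at the bottom (0.289 and 0.524).

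Among the genes of mitotic entry, abundant cyclin B1 had a fold change below 0 and the far rarer cyclin B2 one above 0, and neither passed the adjusted threshold. Ccnb1 (chromosome 13, 100778650 to 100786570 on GRCm38, as are the positions that follow) had 1326, 1430 and 1557 CPM in siRNA libraries, against 2155, 2301 and 2783 CPM in controls. All siRNA values lay below the lowest control, and the mean was 59.6% of the control mean (log2 -0.75, SE 0.187, edgeR unadjusted p = 0.00314, adjusted p = 0.104). Since 14.9% of the 100-base stretches of Ccnb1 transcripts recur in Ccnb1-ps and other pseudogenes, part of its count could belong to them. Wee1, the kinase that restrains Cdk1, had 29.2, 27 and 30.1 CPM in siRNA libraries and 50.8, 37.8 and 84.7 CPM in controls (log2 -1.0, SE 0.321, unadjusted p = 0.0121, adjusted p = 0.186 in edgeR). The groups did not overlap, but control 3 stood well above the other controls, and without it the fold change was -0.62.

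Cdk1 itself had 58, 55.2 and 57.2 CPM in siRNA libraries and 70.3, 75 and 62.1 CPM in controls, groups that did not overlap but differed by only -0.28 on the log2 scale (0.00 with library totals). Ccnb2 had 5.25, 6.29 and 5.44 CPM in siRNA libraries, each above the controls at 4.27, 3.38 and 1.25 CPM (log2 0.93, SE 0.488, edgeR unadjusted p = 0.0885, adjusted p = 0.427). Of the phosphatases that activate Cdk1, Cdc25c had a fold change of -0.10, and Cdc25a one of -0.69 with overlapping groups. Cdc25b, the rarest member, had 0.52, 1.08 and 1.64 CPM in siRNA libraries and 2.11, 2.7 and 1.05 CPM in controls. Ccna2, the cyclin of S and G2 phase, had a fold change of 0.14 and overlaps Exosc9 over 12.5% of its exonic bases.

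**Figure D3:**
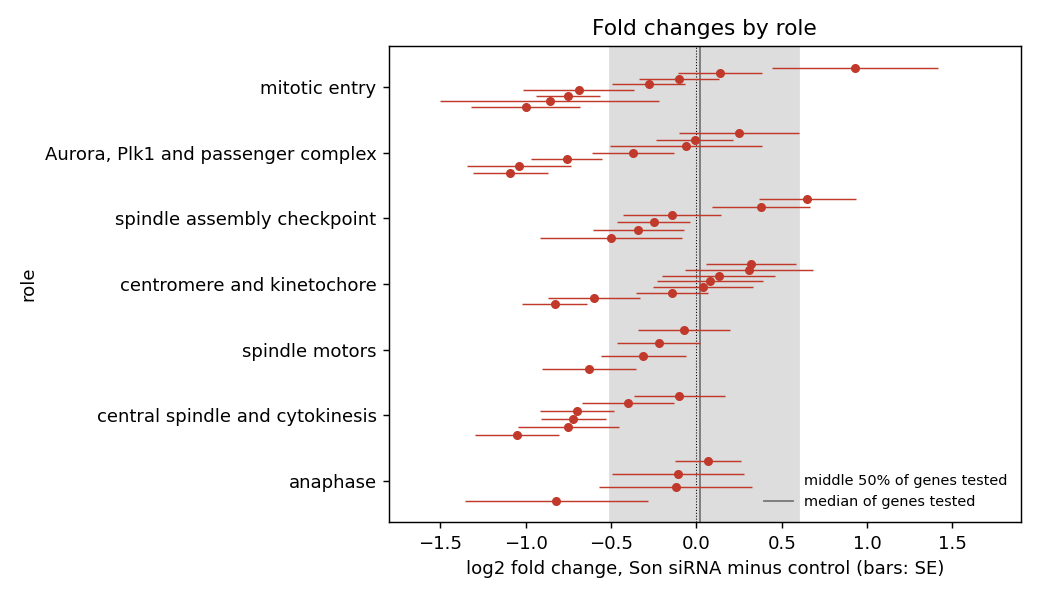
Points give the log2 fold change of each member, Son siRNA minus control, by role, with bars of 1 SE, and the grey band and line give the interquartile range and the median of all 17788 genes tested. Members of the cytokinesis group lie left of 0 from -1.05 to -0.10, while kinetochore members spread from -0.83 to 0.32.

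With TMM factors both Aurora kinases were lower in every siRNA library than in any control, and with library totals Aurkb was. Aurkb (chromosome 11, 69045647 to 69051664), the kinase of the chromosomal passenger complex, had 41.3, 36.7 and 36.4 CPM in siRNA libraries, against 90.1, 73.3 and 81.1 CPM in controls. Its siRNA mean was 46.8% of the control mean (log2 -1.09, SE 0.221, unadjusted p = 0.000791, adjusted p = 0.0609 in edgeR and 0.000205 in DESeq2). Without control 2 its edgeR adjusted p was 0.0458, and without each other library it ran from 0.0881 to 0.362, with fold changes from -1.16 to -1.02 over all 6 omissions. Aurka, which acts at centrosomes and spindle poles, had 188, 166 and 199 CPM in siRNA libraries and 235, 552 and 348 CPM in controls (log2 -1.04, SE 0.303, edgeR adjusted p = 0.148). Control 2 carried much of that difference, since the fold change was -0.66 without it.

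The other passenger subunits differed among themselves. Birc5 had 434, 646 and 568 CPM in siRNA libraries and 977, 881 and 938 CPM in controls, with no overlap (log2 -0.76, SE 0.207, edgeR adjusted p = 0.124). Incenp, the scaffold that activates Aurora B, had 35.7, 27.9 and 28.2 CPM in siRNA libraries and 14.1, 35.1 and 28 CPM in controls, and Cdca8, which encodes borealin, had 635, 605 and 672 CPM against 470, 684 and 772 CPM. Both overlapped, with fold changes of 0.25 and -0.01. Plk1, the Polo kinase, was the lowest of this group per length and had 11.8, 10.2 and 12.8 CPM in siRNA libraries and 8.37, 21.1 and 6.81 CPM in controls. Tpx2, the spindle activator of Aurora A, had a fold change of -0.37 with overlapping groups.

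Ratios between partners within a library do not depend on the scaling factor, and 10 pairs were chosen for this after the values were seen, as a description. Aurkb to Incenp, per kilobase, was 1.7, 1.93 and 1.89 in siRNA libraries and 9.37, 3.07 and 4.25 in controls. Birc5 to Incenp was 15.4, 29.5 and 25.6 in siRNA libraries and 88, 31.9 and 42.6 in controls. Both ratios were lower in all siRNA libraries, Birc5 to Incenp only narrowly (29.5 in siRNA library 2, against 31.9 in control 2), whereas Cdca8 to Incenp overlapped between the groups. Ccnb1 to Cdk1 was 26.8, 30.3 and 31.8 in siRNA libraries and 35.9, 35.9 and 52.4 in controls, and Ccnb1 to Ccnb2 was 91.7, 82.6 and 104 in siRNA libraries and 183, 247 and 811 in controls (means 92.7 and 414). These ratios too were lower in every siRNA library. Ccnb1 to Ccnb2 rested much on control 3, without which the control mean was 215, and Aurkb to Incenp on control 1, without which it was 3.66. Because several pairs set a lower gene over a level or higher partner, the choice of pairs largely fixed these separations, and they support nothing beyond the values.

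**Figure D4:**
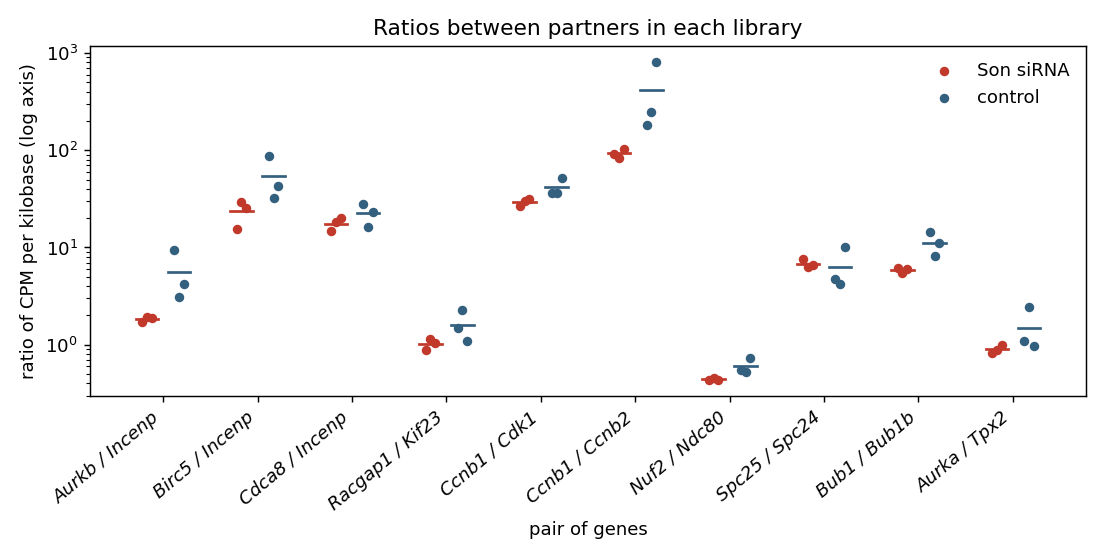
Each pair of columns shows the ratio of CPM per kilobase of 2 genes in single libraries on a log axis, red for Son siRNA and blue for control, with a line at the mean. Aurkb/Incenp, Birc5/Incenp, Ccnb1/Cdk1, Ccnb1/Ccnb2, Nuf2/Ndc80 and Bub1/Bub1b do not overlap between groups, while Racgap1/Kif23, Cdca8/Incenp, Spc25/Spc24 and Aurka/Tpx2 do.

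The spindle assembly checkpoint was the role with the one member that was higher at an unadjusted p under 0.05. Bub1b (chromosome 2, 118598211 to 118641591), which encodes the checkpoint protein BubR1, had 18.5, 20.9 and 16.4 CPM in siRNA libraries, each above the controls at 10.1, 13.2 and 12.4 CPM (log2 0.65, SE 0.285, edgeR unadjusted p = 0.0483, adjusted p = 0.335). Its relative Bub1, a checkpoint kinase at kinetochores, had 116, 117 and 100 CPM in siRNA libraries and 148, 109 and 140 CPM in controls, which overlapped. The ratio of Bub1 to Bub1b was 5.89 ± 0.351 in siRNA libraries and 11.2 ± 3.15 in controls, without overlap. This pair too was chosen after the values were seen, and that choice largely fixed the separation. Mad2l1 and its partner Mad1l1, which build the inhibitor of Cdc20, had fold changes of -0.34 and -0.50. Mad1l1 was the rarest checkpoint gene, at 3.81, 4.04 and 3.1 CPM in siRNA libraries and 3.06, 6.72 and 5.73 CPM in controls. The kinase gene Ttk and the Bub partner Bub3 had -0.14 and 0.38, again with overlapping groups.

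At the centromere and kinetochore, Cenpe was the member with an unadjusted p under 0.05, and its difference from the structural members was not tested. Cenpe (chromosome 3, 135212537 to 135273611), which carries chromosomes toward the spindle equator, had 970, 891 and 755 CPM in siRNA libraries and 1357, 1625 and 1656 CPM in controls. Its groups did not overlap and the siRNA mean was 56.4% of the control mean (log2 -0.83, SE 0.192, unadjusted p = 0.00197, adjusted p = 0.0888 in edgeR and 0.00969 in DESeq2). Of the NDC80 complex, the microtubule anchor, Ndc80 had a fold change of -0.14, Spc24 of 0.13 and Spc25 of 0.32 (0.65 with library totals, edgeR unadjusted p = 0.0228). Nuf2 of the same complex had 54, 61.9 and 57.2 CPM in siRNA libraries and 89.2, 60.7 and 113 CPM in controls (log2 -0.60, edgeR unadjusted p = 0.051), and control 2 lay within the siRNA range. Spc24, the lowest of the group per length, had 8.25, 11 and 8.75 CPM in siRNA libraries and 10.6, 8.61 and 6.38 CPM in controls. Cenpa, the centromeric histone H3, had a fold change of 0.08, the corona protein gene Cenpf 0.31 and the adaptor gene Zwint 0.04.

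Of the spindle motors only Kif18a, which dampens chromosome oscillation, reached an unadjusted p under 0.05. It had 310, 312 and 295 CPM in siRNA libraries and 407, 329 and 681 CPM in controls (log2 -0.63, SE 0.275, edgeR unadjusted p = 0.0484, adjusted p = 0.335). Control 3 set this difference, since the fold change was -0.27 without it. Kif11, the motor that separates the poles, had a fold change of -0.22 and the chromokinesin gene Kif4 had -0.31, and it overlaps Pdzd11 over 15.1% of its exonic bases. Kif2c, a microtubule depolymerase and the lowest motor per length, had 127, 88.9 and 120 CPM in siRNA libraries and 80.8, 132 and 141 CPM in controls.

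Cytokinesis genes were the role with the lowest median, -0.71 (-0.41 with library totals), and 4 of 6 were lower at an unadjusted p under 0.05, where 8.86% of all genes were. With totals 1 of the 6, Anln, had such a p. Anln (chromosome 9, 22332012 to 22389188), which encodes the ring scaffold anillin, had 210, 177 and 182 CPM in siRNA libraries, against 273, 434 and 473 CPM in controls (log2 -1.05, SE 0.246, unadjusted p = 0.00203, adjusted p = 0.0901 in edgeR and 0.00578 in DESeq2). Prc1, which bundles the midzone microtubules, had 411, 325 and 344 CPM in siRNA libraries and 562, 576 and 639 CPM in controls (log2 -0.72, SE 0.191, edgeR adjusted p = 0.12), and it overlaps Rccd1 over 11.1% of its exonic bases. Ect2, the exchange factor that activates RhoA at the equator, had 55.9, 49.8 and 46 CPM in siRNA libraries and 85.1, 75.9 and 85.5 CPM in controls (log2 -0.70, SE 0.216, edgeR adjusted p = 0.17). In all 3 genes the groups did not overlap with TMM factors (Anln overlapped with library totals), and the siRNA means were 48.1%, 60.7% and 61.5% of the control means of Anln, Prc1 and Ect2.

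Centralspindlin, the complex that recruits Ect2, has a pair of subunits. Racgap1 had 115, 98.1 and 120 CPM in siRNA libraries and 127, 273 and 162 CPM in controls (log2 -0.75, SE 0.295, edgeR unadjusted p = 0.0311, adjusted p = 0.279), and without control 2 its fold change was -0.37. Kif23, the motor subunit, had 145, 96.3 and 128 CPM in siRNA libraries and 96.2, 135 and 166 CPM in controls, with a fold change of -0.10. The ratio of the pair overlapped between the groups, at 1.02 ± 0.128 in siRNA libraries and 1.61 ± 0.598 in controls. Kif20a, a midzone motor, had a fold change of -0.40, and it overlaps Cdc23 over 29.3% of its exonic bases.

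**Figure D5:**
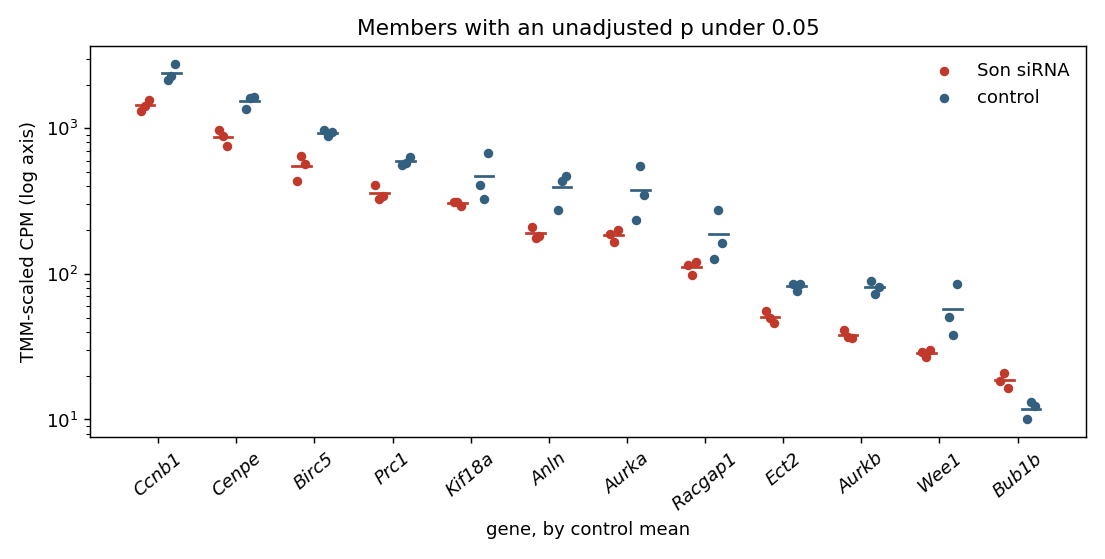
Points give TMM-scaled CPM in single libraries on a log axis for the 12 members with an unadjusted p under 0.05, red for Son siRNA and blue for control, with a line at the mean. In 11 genes all red points lie below the blue ones, and in Bub1b they lie above.

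The genes of anaphase onset held no member at an unadjusted p under 0.05. Pttg1 had 358, 391 and 436 CPM in siRNA libraries and 367, 341 and 425 CPM in controls (log2 0.07, SE 0.194). Cdc20 had 302, 272 and 383 CPM in siRNA libraries and 187, 584 and 262 CPM in controls, where the value of control 2 was more than the others of both groups, and its fold change was -0.11 with all libraries and 0.51 without control 2. Espl1, which encodes separase, had a fold change of -0.12 and 0.58 without control 2. Fzr1 had 3.67, 1.09 and 1.9 CPM in siRNA libraries and 4.61, 4.49 and 2.63 CPM in controls, with overlap and a fold change of -0.82 (SE 0.537).

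Fold changes can be set beside the promoter letters shown above. The 24 members with CHR letters had a median fold change of -0.13, and 5 of them (Aurka, Prc1, Ect2, Racgap1 and Anln) were lower at an unadjusted p under 0.05 and 1 (Bub1b) higher. The 11 members with a window but neither CHR spelling searched for had a median of -0.63, with 4 lower (Ccnb1, Birc5, Cenpe and Kif18a). The 8 members without a window had a median of -0.24, with 2 lower (Wee1 and Aurkb). Of all genes tested, 8.86% were lower and 5.88% higher at that p. These values rest on TMM factors, and the difference between the classes was not tested. Racgap1 and Kif23, whose printed stretches share the same layout, had fold changes of -0.75 and -0.10, and these figures are a description without a test.

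Beyond the 43 genes, 8 further lists of mitosis genes held 135 tested genes, with 86 below 0 (63.7%, against 48.7% of all genes). Their median was -0.13 with TMM factors, where that of all genes was 0.02. With library totals it was 0.18, above 0 but below the 0.31 of all genes. Of these 135, edgeR called 1 lower, Anapc15, a share of 0.741% that is no more than the 0.899% of all genes. This APC/C subunit, which promotes turnover of the checkpoint complex on Cdc20, had 30, 39.3 and 34.7 CPM in siRNA libraries and 114, 118 and 124 CPM in controls, so that it fell to 29.3% of the control mean (log2 -1.77, SE 0.221, adjusted p = 0.0141). The call was lost with library totals (log2 -1.49, adjusted p = 0.0537) and without siRNA library 1, 2 or 3 (adjusted p = 0.196, 0.0746 or 0.149). At an unadjusted p under 0.05, 18 genes of these lists were lower (13.3%, against 8.86% of all genes) and 3 higher (2.22%, against 5.88%), and DESeq2 called 10 lower (7.41%, against 4.63%) and 0 higher.

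With library totals the median of each of the 8 lists was above 0, from 0.07 to 0.53, where that of all genes was 0.31. The counts below 0 that follow rest on TMM factors. Among APC/C genes 14 of 17 had a fold change below 0 (median -0.14), with Fbxo5, which encodes the APC/C inhibitor Emi1, at 48.4 ± 7.24 CPM in siRNA libraries and 96.9 ± 29.4 CPM in controls (adjusted p = 0.129 in edgeR, log2 -1.0), and Anapc10 at -0.80. In cohesin and condensin (19 tested, 13 below 0, median -0.16) the cohesin genes Stag2 and Smc1a had 363, 262 and 325 CPM and 64, 48.3 and 63.4 CPM in siRNA libraries, against 920, 586 and 702 CPM and 128, 107 and 121 CPM in controls. Neither gene overlapped between groups (Stag2 log2 -1.22 and Smc1a -1.02, edgeR adjusted p = 0.0554 and 0.0738), and Ncaph of condensin had -0.81. Other cytokinesis genes (15 tested, 8 below 0, median -0.06) included citron kinase, Cit, at 31.9, 25.5 and 30.5 CPM in siRNA libraries and 79.1, 87.9 and 48.3 CPM in controls (adjusted p = 0.0767 in edgeR, log2 -1.29), Rhoa at -0.68 and Chmp4c at -1.90 with overlapping groups.

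In the lists that follow, the leading genes are those with the smallest edgeR p, not those with the largest fold changes. Inner centromere genes (18 tested, 14 below 0, median -0.08) were led by Cenpt at -1.26, Cenpu at -0.81 with overlapping groups and Cenpn at -0.48. Outer kinetochore genes (16 tested, 9 below 0, median -0.08) were led by Trip13, an ATPase that remodels Mad2, at -0.78, Nsl1 at 1.07 and Sgol2a at -0.46. Further spindle proteins (25 tested, 19 below 0, median -0.20, range -1.43 to 0.97) were led by Hmmr at -0.87, Haus8 at -1.12 and Haus2 at -0.92. The groups of Haus2 overlapped. The list of other mitotic kinases, phosphatase inhibitors and CDK partners had a median above 0 (16 tested, 11 above 0, median 0.19, range -0.87 to 1.44). It was led by Ccne2, a cyclin of S phase entry, with 61.4, 69.5 and 70.3 CPM in siRNA libraries and 43, 31.7 and 44 CPM in controls (adjusted p = 0.178 in edgeR, log2 0.76). Plk4 followed at 0.55 and Cks1b at 0.36. No gene of these 4 lists was called by edgeR.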

How the data were processed

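The authors deposited 1 table per library with a whole-number estimated count per gene, not normalized. For alignment and quantification the submitters' processing notes name HISAT2 2.0.5, StringTie 1.3.3b and GRCm38. For the annotation release and the filters the entry is: not given in the sources used here. Per the labels' protocols cDNA was made by Smart-Seq2, which keeps no strand, so overlapping genes cannot be told apart. If 1 read pair is worth about 4 units, which is an assumption from the values, a floor of 3 read pairs is 12 units. The files held 0 blank or unassigned rows.

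Counts were fitted over the whole table with edgeR 4.0.16 (R 4.3.3; filterByExpr, TMM, glmQLFit and glmQLFTest, no block), with Benjamini-Hochberg adjustment over 17788 genes and a threshold of 0.05. Fold changes are log2, Son siRNA minus control. SE is the absolute fold change over the square root of the F statistic. DESeq2 1.42.0 was an alternative, next to other scalings, other filters, counts divided by 4, the replicate block and leaving out each library. Exon lengths, overlaps and shared stretches of 100 bases came from GENCODE vM21 (GRCm38), which matched 45137 of 46072 identifiers. The fit was tested on simulated data. It called 78 of 100 genes given a 4-fold change and 12 of 100 given a 2-fold change. Of 16513 genes given no change it called 8. Most 2-fold changes were thus missed there. Changes were given only to randomly drawn genes above a minimum CPM, with spreads taken from the fit. These counts therefore do not measure how often a changed member would be called. The log2 fold changes of the 43 members ran from -1.09 to 0.93.

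The members and lists were chosen with earlier results of these data known. Values in every library are given for members with an unadjusted p under 0.05 and for the highest and lowest member per length of each of 7 role groups, and for a few others named after their values were seen. From each other list the 3 genes with the smallest p are named. Embryo transcripts were added after the data were seen. Files give Casc5, Sgol1, Sgol2a and Gsg2 for genes also known by newer symbols, and Wapl, which the files hold as Wapal, was left out.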

Additional observations from a re-analysis of the deposited data

How the results depend on the processing

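Calls depended on the tool and the libraries more than the members' fold changes did. Over all genes, edgeR called 160 lower and 16 higher, against 35 and 7 with library totals, 91 and 9 without a filter, 245 and 43 with at least 50 units in 3 libraries, 279 and 51 with counts divided by 4, 823 and 405 with DESeq2, and 0 to 231 and 0 to 84 when a library was left out (0 and 0 without any siRNA library). Members called lower numbered 0, and 1 with the stricter filter, with counts divided by 4 or without control 2 (Aurkb each time), 9 with DESeq2, and 0 to 1 over the omissions. Members lower at an unadjusted p under 0.05 numbered 11, and 5 with totals. Those higher numbered 1, and 3 with totals, 0 with the stricter filter or counts divided by 4, and 0 to 3 over the omissions. In the other lists 1 gene was called lower, 0 with totals, 2 with the stricter filter or counts divided by 4, 10 with DESeq2, and 0 to 3 over the omissions. The members' median was -0.25, 0.06 with totals, and -0.34 to -0.19 over the omissions. Their summed level averaged 8155 CPM in siRNA libraries and 11488 CPM in controls, and 9071 and 10417 with totals, where the groups overlapped. Son had -3.50 to -3.12 over the omissions and missed the threshold without any 1 siRNA library. With the window cut to the 150 bases before the start, 8 members held CHR letters and 7 both letters, against 24 and 21. Ordering members per length by the longest transcript kept all 14 highest and lowest members. The labels do not say what the replicate numbers share. Same-numbered deviations from the group mean correlated at -0.293, -0.335 and 0.0552, and those of siRNA library 2 and control 1 at 0.424. Since deviations within a group sum to 0, these values cannot decide whether the libraries were paired. With the replicate block edgeR called 0 genes lower and 0 higher over the whole table and 0 in the other lists. It gave 0 members higher at an unadjusted p under 0.05. Son had -3.29 with the replicate block (adjusted p = 0.0617).

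With 3 libraries a group an exact test of 1 gene cannot give a p under 0.1. Over the alternatives, of 602 values of the members' fold changes 576 kept their direction of call or moved less than the replicate SD. Of the rest, 14 moved further and 12 passed the adjusted threshold. This pools all settings, and library totals weighed more: with them 20 members had a fold change below 0, against 32 with TMM factors. Depth limits the rarest members, Cdc25b and Fzr1.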

Other observations

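Of 9 tested genes of transcription in G2 and mitosis, 4 had a fold change below 0 and 5 above (range -0.57 to 0.66, median 0.01, 0.28 with library totals), and edgeR called 0, with 0 at an unadjusted p under 0.05 and 0 by DESeq2. Foxm1, the forkhead activator of late cell cycle genes, had 13.2, 9.7 and 17.1 CPM in siRNA libraries, each above the controls at 7.64, 9.38 and 8.32 CPM (log2 0.66, edgeR adjusted p = 0.394). Lin9, a subunit of the MuvB complex that binds CHR elements with B-Myb, had 84.8, 79.8 and 64.8 CPM in siRNA libraries and 119, 76.4 and 118 CPM in controls, which overlapped (log2 -0.45). Rbl1, which encodes p107, had a fold change of 0.39 with overlap.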
